A study of Mus musculus with 12 samples.

Results

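The genes described here are 42 mouse genes of ribosome biogenesis and the nucleolus, listed by name with no measured value in the rule. Of these, 41 were found among the 24906 genes of each expression table and all 41 passed the filter on low values in both tables, while Noc2l was not analysed here. By role they comprise 3 box C/D and 3 box H/ACA small nucleolar ribonucleoprotein (snoRNP) genes, 3 subunit genes of RNA polymerase I, 14 factors of the small and 13 of the large ribosomal subunit, and 5 nucleolar genes with several roles.

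RNA-Seq was performed on 12 libraries of tumor organoids, cultures grown from intestinal tumors. All libraries, the untreated ones included, share the labelled genotype Smad4KO;BRAFV600E/+;pINDUCER-SMAD4 and the labelled tissue small intestine. The source mice carried Smad4f/f, BRAFV600E/+ and Villin-CreERT2, in which an inducible Cre is driven by the promoter of the epithelial gene Villin. The construct pINDUCER-SMAD4, delivered by lentivirus with puromycin selection, expresses SMAD4 when doxycycline (dox) is given. Libraries were collected after 48 h with 4 ug/mL dox or without it, either in BME, a basement membrane extract for 3D growth, or on tissue culture plastic. The BME groups held untreated lines 682, 700 and 889 (n = 3), dox lines 700 and 889 (n = 2), and 1 further library of line 682 that the treatment label calls mock beside dox (n = 1), while its title reads as dox and its genotype label is that of the other libraries. On plastic the untreated and dox groups each held lines 560, 700 and 889 (n = 3). In BME the mock library was kept with the untreated libraries as control (n = 4), as the study counts its vehicle arm. A line number names a transduced organoid line grown from tumor tissue, so the spread between libraries of a group is spread between lines. Apart from the mock library no dox library lacks SMAD4 induction, so an effect of dox itself and of SMAD4 cannot be told apart.

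Ribosomes are built in the nucleolus, where RNA polymerase I transcribes a long precursor RNA that box C/D snoRNPs methylate and box H/ACA snoRNPs pseudouridylate. Many further factors cut, fold and package this precursor into the small and the large subunit before export to the cytoplasm. The genes of this pathway are known targets of the transcription factor MYC, and their RNA is abundant in growing intestinal crypt and tumor cells.

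Libraries held 14530991 to 16336163 reads in BME and 17019396 to 21065882 on plastic, as rebuilt from the steps of the low values. Smad4 measured 6.53 and 6.23 FPKM (a read count corrected for transcript length and sequencing depth) in untreated BME lines 700 and 889 and 17.2 and 27.3 FPKM with dox. In the mock library it measured 10.3 FPKM against 8.88 FPKM in untreated line 682. On plastic it measured 2.99, 4.76 and 1.54 FPKM in untreated lines 700, 889 and 560 and 18.1, 48.9 and 73.6 FPKM with dox. Of 10 epithelial markers 10 in BME and 9 on plastic had a mean of at least 0.5 FPKM, against 2 of 8 immune markers in each environment and 2 and 0 of 11 stromal markers. Summed epithelial markers were 7921 to 9864 FPKM in dox and 4240 to 5244 FPKM in control BME libraries, and 11909 to 17390 and 13256 to 14543 FPKM on plastic. Summed immune markers in BME were 6.76 to 11.98 FPKM in dox and 7.35 to 17.9 FPKM in control libraries. On plastic they were 4.02 to 39.3 FPKM in dox and 3.69 to 16.1 FPKM in untreated libraries. Summed stromal markers in BME were 1.09 to 7.11 FPKM in dox and 1.07 to 4.17 FPKM in control libraries. On plastic they were 0.436 to 1.13 FPKM in dox and 0.260 to 0.492 FPKM in untreated libraries. Among the immune markers Adgre1 was at 0 in every library and Ptprc at no more than 0.0958 FPKM. The part of the epithelial markers in the results below was not tested.

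The change varied with transcript length in most pairs, and least in BME line 700. Throughout, a change is the difference of log2(FPKM + 1), dox minus untreated or control. In the plastic pair of line 560 the median change of all genes was -0.40 for transcripts of 1000 to 2000 bases and 0.45 for those of 4000 to 8000 bases. The mock pair leaned the same way, with -0.13 and 0.09. The 889 pairs leaned the other way, with 0.15 and -0.14 on plastic and 0.05 and -0.06 in BME. Across the 41 members, whose longest coding transcripts run from 1034 to 8831 bases, Spearman's rho of change and length was 0.69 in plastic line 560, 0.58 in the mock pair, -0.62 in plastic line 889 and -0.59 in BME line 889, with rho over all genes at 0.55, 0.36, -0.26 and -0.19. In line 700 it was -0.37 on plastic and -0.18 in BME, with -0.10 and -0.06 over all genes. These are descriptions across genes of the same libraries. This trend was removed from each library for the fits, and from the change itself for a single pair. Values after its removal are given beside the counts and medians over members in each environment, pair and the difference between environments, and beside some single members.

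**Figure D1:**
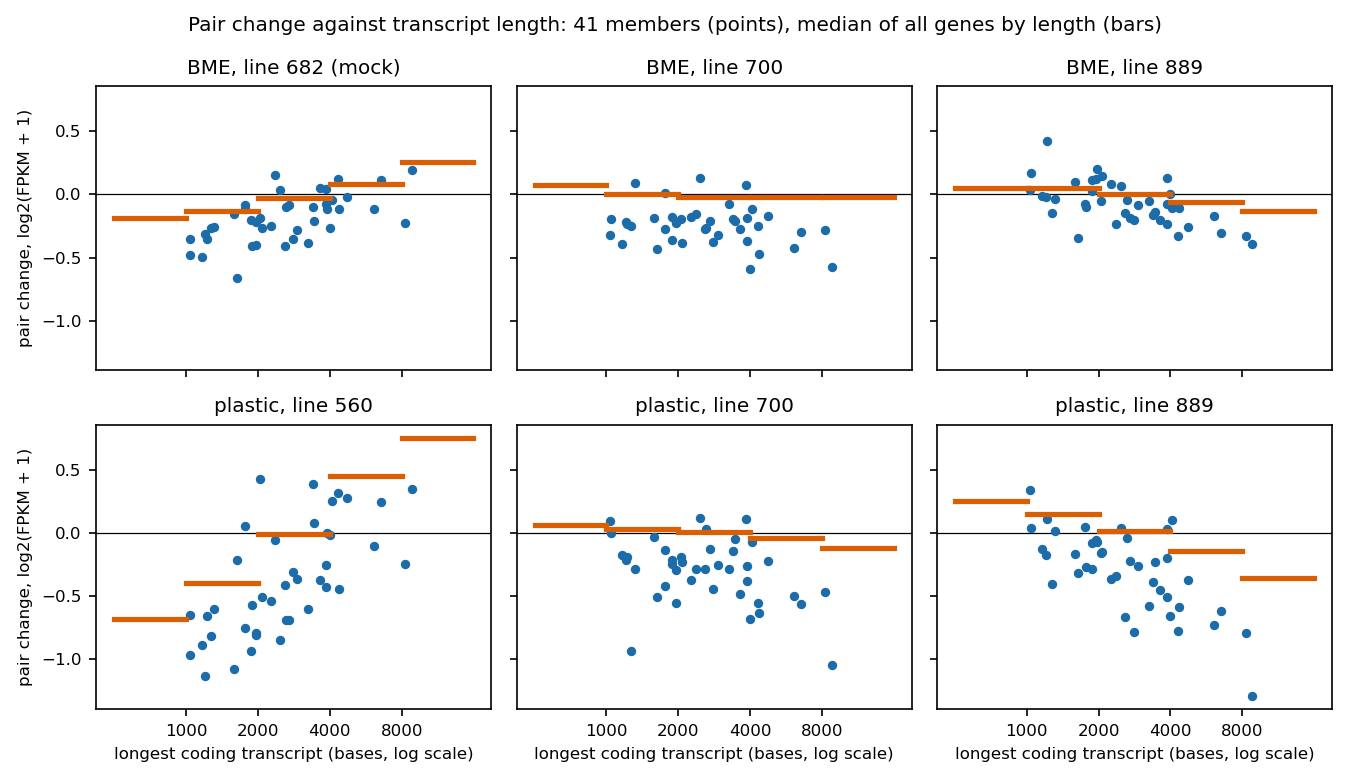
Each panel plots the change of log2(FPKM + 1) in a same-line pair (y axis) against the longest coding transcript in bases (x axis, log scale), with the 41 members as points and the median of all genes in each length class as horizontal bars, the outermost classes being open-ended. Short members lie lowest in plastic line 560 and the mock pair, and long members lie lowest in both 889 pairs and, with a weaker trend, both 700 pairs.

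In untreated organoids 34 of 41 members in BME and 33 on plastic lay above the middle of the genes tested. The median over members was 30.3 FPKM in BME and 28.5 FPKM on plastic, against 11.7 and 10.0 FPKM over all genes tested. Npm1 (nucleophosmin, an abundant nucleolar chaperone) had the highest level, at 921 ± 123 FPKM (SD, n = 3) in untreated BME and 574 ± 25.4 FPKM on plastic. It was followed by Fbl (fibrillarin, the methyltransferase of box C/D snoRNPs), with 157 ± 26.2 and 152 ± 25.5 FPKM. Neighbours below these lay within their spread, with Nop56, a core box C/D protein, at 112 ± 15.9 FPKM and Nhp2, a core box H/ACA protein, at 103 ± 5.67 FPKM in BME. At the low end was Utp20, a component of the small subunit processome, at 5.61 ± 1.16 FPKM in BME and 5.15 ± 2.04 FPKM on plastic. Every member had at least 261 reads in each BME library and 198 on plastic. Untreated lines differed among themselves by a median of 1.22 times in BME and 1.32 times on plastic, the highest over the lowest line.

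The promoters of the members were searched because MYC binds the E-box CACGTG. A window reaching from upstream of the start to 50 bases into the gene was held in the RefSeq table (GRCm38.p6) for 35 of the 41 members, and CACGTG, which reads the same on both strands, occurred in 8 of them (22.9%) against 8.09% of 27025 genes. These are Grwd1, Ltv1, Mybbp1a, Nop2, Pes1, Tsr1, Utp20 and Wdr43. Member windows are richer in G and C, with a median of 59.3% against 52.7% over all windows. The motif CCGGAAG, searched on both strands and bound by ETS factors, occurred in 12 members (34.3%) against 9.93% of all genes, and GTCTAGAC, the SMAD palindrome, in 0 against 0.248%. The palindromic motif of NRF1 occurred in 0 members against 1.07% of all genes. The sites of Utp20, Mybbp1a and Grwd1, the 3 motif holders whose values in every library follow, are shown to place the motif. These genes were picked by their change with dox or its difference between environments, so they do not represent the 8 holders. The sites are written in the direction of the gene with the motif in capitals, for Utp20 at chr10:88826765-88826794 (minus strand), Mybbp1a at chr11:72441347-72441376 (plus strand) and Grwd1 at chr7:45830740-45830769 (minus strand).
Utp20: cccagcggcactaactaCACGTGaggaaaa
Mybbp1a: aagtgactgtcttctgagccCACGTGtttg
Grwd1: aagggccggagtcgCACGTGtgaaaccgga
In these genes the motif begins at base 38, 41 and 35, counted from 1 at the start.

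On plastic, 39 of 41 members had a lower fitted value with dox, where 48.9% of the 12333 genes tested did, and the median change was -0.34 against 0.01 over all genes. No member was called by limma at an adjusted p under 0.05 with an absolute change over 1, where 0.0324% of all genes were. Smad4 itself was not called either, with a change of 3.42 ± 0.55 (adjusted p = 0.162) on plastic and 1.36 ± 0.27 (adjusted p = 0.959) in BME, so an uncalled member is not shown to be unaltered. At an unadjusted p under 0.05, 6 members (Nop58, Gar1, Wdr12, Ddx18, Ncl and Mybbp1a) were lower and 0 were higher, beside 3.73% and 4.56% of all genes. The count of lower members ran from 1 to 8 when 1 library was left out at a time. With the line as a block there were 3 lower (Dkc1, Gar1 and Mybbp1a) and 0 higher, beside 6.05% and 7.44% of all genes, and with the length trend removed 12 and 0, beside 4.55% and 5.67%. After that removal 38 of 41 members had a lower fitted value, beside 48.5% of all genes, with a median of -0.29. By limma-voom on the reads rebuilt from FPKM 0 members were called and 4 were lower at an unadjusted p under 0.05, beside 3.49% of all genes. In bulk RNA a lower share of growing cells and less RNA per cell cannot be told apart, and FPKM gives a share of the library and not an amount.

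The 3 plastic pairs each had a lower median. Over the members it was -0.43 in line 560, -0.26 in line 700 and -0.26 in line 889, and 31, 36 and 33 of 41 members were lower, where 49.8%, 50% and 49% of all genes were. Removing the length trend gave medians of -0.36, -0.28 and -0.29 with 34, 37 and 38 lower. As measured, 10, 5 and 8 members were higher, beside 49.7%, 48.9% and 50.5%. In a fit of lines 700 and 889 alone 36 members were lower and 5 higher, beside 49.4% and 50.4%, with a median of -0.27. In all 3 pairs 23 members were lower, beside 18.7% of all genes, and no member was higher in all 3, beside 18.6%. For 15 members every dox library lay below every untreated library, beside 7.26% of all genes, and for no member did every dox library lie above, beside 7.87%. The roles were uneven in line 560. There the 13 large subunit factors had a median of -0.66 with 12 lower, while the 14 small subunit factors had a median of 0.03 with 6 lower. In lines 700 and 889 the small subunit factors had medians of -0.18 and -0.22 with 12 and 11 lower. With the length trend removed the medians of line 560 were -0.44 for the large and -0.24 for the small subunit factors, with 11 and 10 lower.

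**Figure D2:**
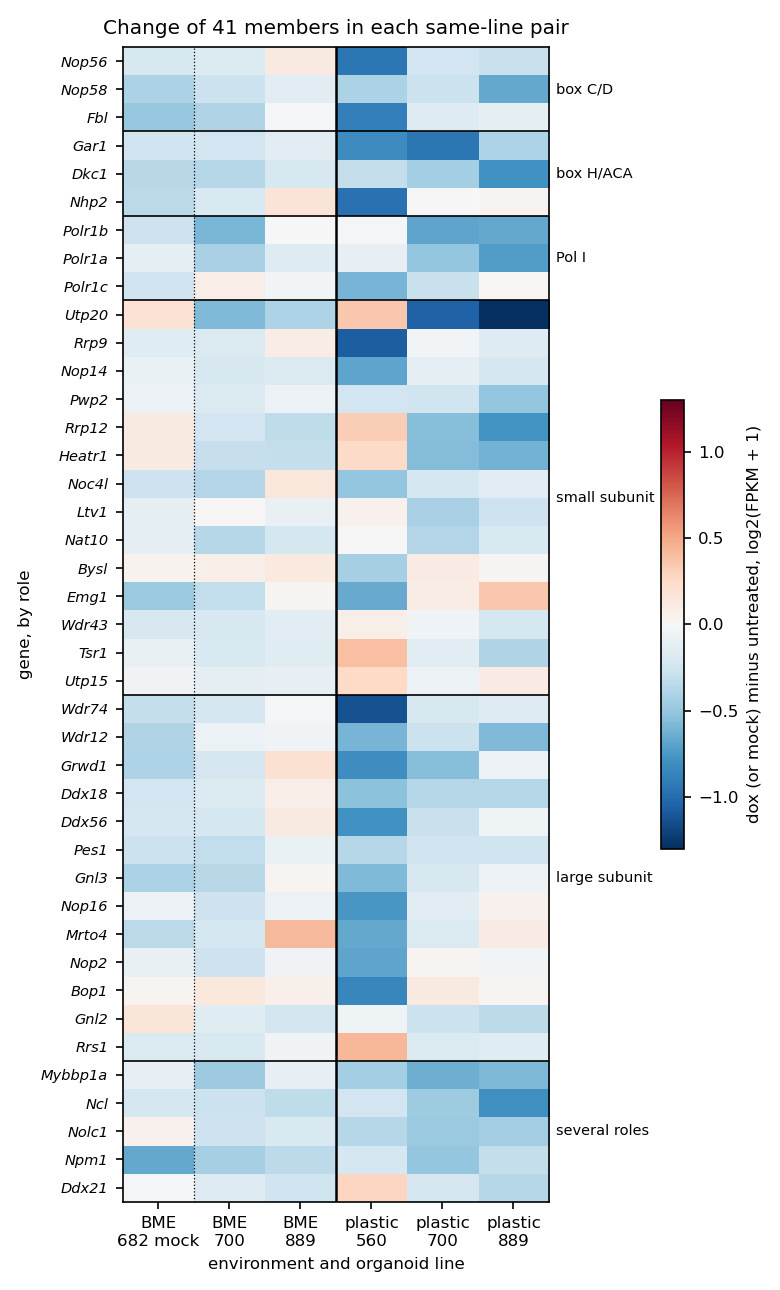
Rows are the 41 members grouped by role and columns are the 6 same-line pairs, the mock pair first; colour gives the change of log2(FPKM + 1), blue for lower and red for higher. Blue fills most of each column, with 34 of 41 members lower in the mock pair and 31 to 37 in 4 of the 5 dox pairs; the BME pair of line 889 is palest, with 28.

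Among the snoRNP genes all 6 had lower fitted values on plastic. Gar1, a core protein of box H/ACA snoRNPs on chr3:129527830-129534314 (NCBIM37, minus strand), had the lowest fitted change of the members, although Utp20 was lower with the length trend removed, with a pseudocount of 0.1, by limma-voom, in lines 700 and 889 alone and without either library of line 560. Gar1 measured 25.6, 20.4 and 18.2 FPKM in untreated lines 560, 700 and 889 and 14.1, 10.2 and 13.5 FPKM with dox. Every dox value lay below every untreated value, and the change was -0.72 ± 0.22 (SE; adjusted p = 0.499), or -0.63 with the length trend removed. Dkc1 (dyskerin), the pseudouridine synthase of the same particles, measured 22.3, 16.3 and 23.2 FPKM untreated and 17.9, 11.7 and 13.1 FPKM with dox. It was lower in each pair, though the groups overlapped because untreated line 700 was low, and the change was -0.51 ± 0.24 (adjusted p = 0.641). Nhp2, the third member of this role, measured 142, 88.8 and 85.7 FPKM untreated and 72.3, 88.9 and 88.0 FPKM with dox. As measured only line 560 was lower, and the change was -0.31 ± 0.25 (adjusted p = 0.811). With the length trend removed the change was -0.20, and Nhp2, Gar1 and Dkc1 were all lower in each of the 3 pairs.

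The box C/D genes Nop56, Nop58 and Fbl were lower in each of the 3 plastic pairs. Fbl measured 179, 149 and 128 FPKM in untreated lines 560, 700 and 889 and 96.3, 132 and 118 FPKM with dox. The largest step was in line 560, the groups overlapped, and the change was -0.39 ± 0.22 (adjusted p = 0.700), or -0.29 with the length trend removed. Nop58, the partner of Nop56 in the particle, had a change of -0.45 ± 0.19 (adjusted p = 0.60) with dox below untreated in every library.

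The polymerase genes were also on the lower side. Polr1a and Polr1b, which encode the largest subunits of RNA polymerase I, had changes of -0.45 ± 0.21 (adjusted p = 0.644) and -0.45 ± 0.24 (adjusted p = 0.673). Polr1c, whose product is shared with RNA polymerase III, measured 38.7, 25 and 24.6 FPKM untreated and 25.1, 20.3 and 24.8 FPKM with dox in lines 560, 700 and 889. Line 889 showed no step down in Polr1c, and its change was -0.29 ± 0.24 (adjusted p = 0.811).

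Of the 14 small subunit factors 13 had lower fitted values on plastic, with the widest differences between lines in Utp20, on chr10:88209352-88289559 (NCBIM37, minus strand). Utp20 measured 2.87, 5.79 and 6.80 FPKM in untreated lines 560, 700 and 889 and 3.95, 2.28 and 2.18 FPKM with dox. It was higher with dox in line 560 and lower in the other two, and its transcript, at 8831 bases, is the longest of the members. The change was -0.66 ± 0.34 (adjusted p = 0.657), and with the length trend removed -0.77 (adjusted p = 0.330). Heatr1 and Rrp12, other long-transcript factors of the small subunit, had the same pattern, with 0.25 and 0.32 in line 560, -0.56 and -0.55 in line 700 and -0.61 and -0.78 in line 889. Emg1, a methyltransferase of small subunit RNA with a transcript of 1034 bases, showed the reverse. It measured 60.5, 39.6 and 32.3 FPKM untreated and 38.2, 42.3 and 41.3 FPKM with dox, with a change of -0.07 ± 0.26 (adjusted p = 0.972) that turned to 0.04 with the length trend removed. Utp15, a processome component, was the small subunit factor with a higher fitted value, at 6.09, 8.69 and 8.74 FPKM untreated and 7.46, 8.22 and 9.49 FPKM with dox. Its change of 0.10 ± 0.22 (adjusted p = 0.947) was less than its SE. Bysl (bystin), a small subunit assembly factor, measured 13.7, 12.9 and 12.5 FPKM untreated and 9.93, 14.0 and 12.8 FPKM with dox (-0.10 ± 0.20, adjusted p = 0.942), lower in line 560 alone.

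Of the 13 large subunit factors 12 had lower fitted values on plastic. Wdr74, a factor of early large subunit maturation, measured 73.6, 53.0 and 43.5 FPKM in untreated lines 560, 700 and 889 and 33.0, 45.7 and 38.5 FPKM with dox. All 3 pairs were lower, mostly line 560, the groups overlapped, and the change was -0.51 ± 0.25 (adjusted p = 0.649), or -0.41 with the length trend removed. Leaving out 1 library at a time gave -0.68 to -0.30. Wdr12, Bop1 and Pes1 form the PeBoW complex, which acts in processing of large subunit RNA, and gave unequal values. Wdr12 measured 7.70, 7.30 and 8.19 FPKM untreated and 4.74, 5.82 and 5.16 FPKM with dox, with no overlap and a change of -0.49 ± 0.18 (adjusted p = 0.581). Pes1 was also lower in each pair, with a change of -0.29 ± 0.16 (adjusted p = 0.698). Bop1 measured 61.7, 48.5 and 46.9 FPKM untreated and 33.9, 52.8 and 48.2 FPKM with dox, so that only line 560 was lower, and its change was -0.23 ± 0.24 (adjusted p = 0.854). Grwd1, a histone-binding nucleolar protein, measured 17.5, 17.4 and 14.7 FPKM untreated and 9.54, 11.5 and 14.0 FPKM with dox, without overlap (-0.48 ± 0.21, adjusted p = 0.613). The helicase gene Ddx18 had a similar value in each pair, -0.54, -0.38 and -0.37 in lines 560, 700 and 889 (adjusted p = 0.585). Rrs1, a factor for incorporating the 5S particle, measured 12.7, 17.2 and 20.3 FPKM untreated and 17.4, 15.0 and 18.0 FPKM with dox. Its fitted change of 0.03 ± 0.23 (adjusted p = 0.987) turned to -0.17 in lines 700 and 889 alone.

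The 5 nucleolar genes with several roles had a median change of -0.43 on plastic, with all 5 lower in lines 700 and 889 and 4 of 5 in line 560. Mybbp1a, a nucleolar Myb-binding protein on chr11:72254857-72265270 (NCBIM37, plus strand), measured 64.6, 64.6 and 58.6 FPKM in untreated lines 560, 700 and 889 and 47.2, 41.3 and 38.8 FPKM with dox. The groups did not overlap, and the change was -0.55 ± 0.17 (adjusted p = 0.505), or -0.61 with the length trend removed. Its exons overlap those of Spns2 on the opposite strand by 131 bases. Ncl (nucleolin), on chr1:88241294-88256030 (NCBIM37, minus strand), measured 54.3, 62.1 and 66.7 FPKM untreated and 45.7, 44.7 and 38.0 FPKM with dox, a change of -0.50 ± 0.18 (adjusted p = 0.567). Its groups did not overlap either, and the step was widest in line 889. Npm1 measured 553, 602 and 567 FPKM untreated and 476, 424 and 456 FPKM with dox, again without overlap (-0.35 ± 0.19, adjusted p = 0.690). Npm1 has processed copies elsewhere in the genome, so its reads may be shared between them. Nolc1, a chaperone of snoRNPs, had changes of -0.37, -0.48 and -0.45 in the 3 lines. The helicase gene Ddx21 was the exception, with 0.28 in line 560 against -0.22 and -0.37 in lines 700 and 889.

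**Figure D3:**
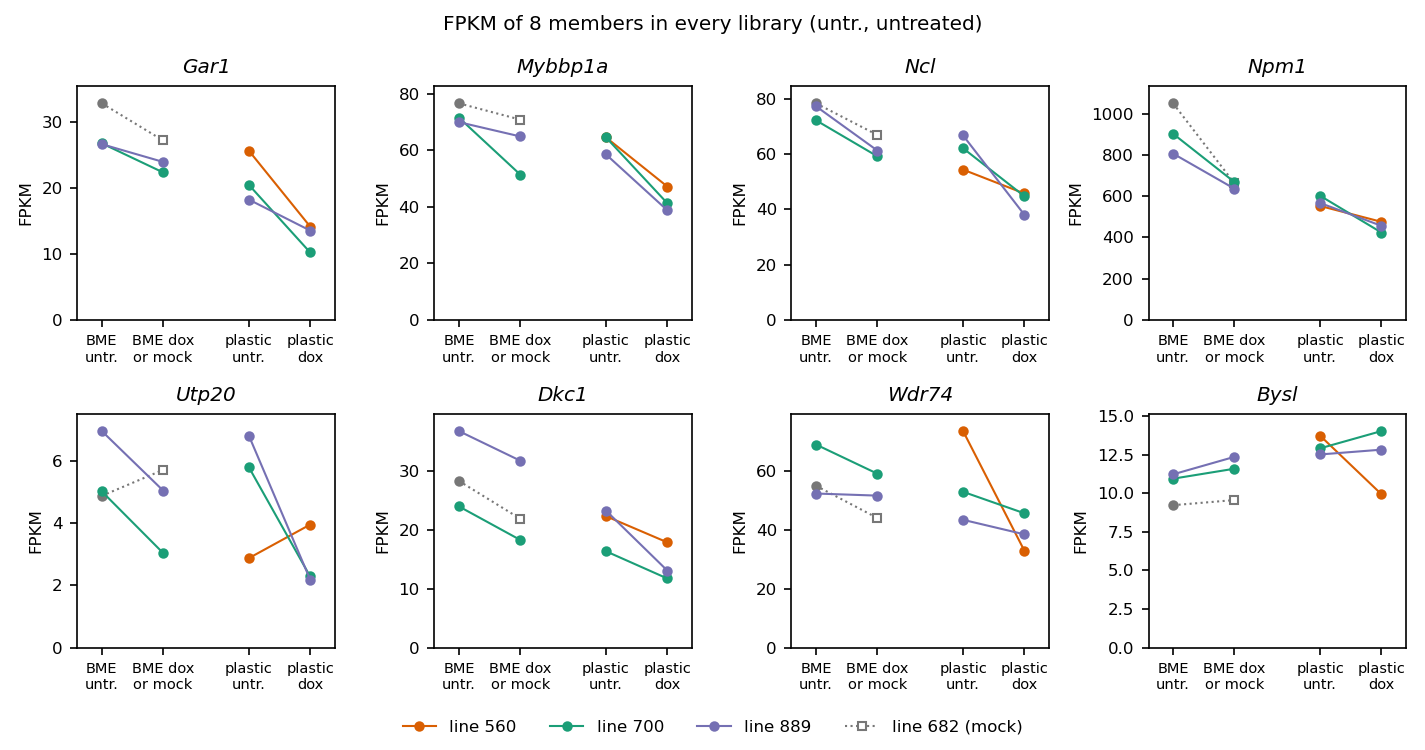
Each panel plots FPKM (y axis, from 0) of a member in every library, lines joining the untreated and the dox library of an organoid line; the open square and dotted line mark the mock library of line 682. Gar1, Mybbp1a and Ncl step down in each dox pair, Utp20 steps up in plastic line 560 and in the mock pair, and Bysl steps up slightly in all pairs except plastic line 560. Levels in BME and on plastic come from separately normalized tables and are not compared.

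In BME the median over members was nearer to 0. The fitted value was lower for 30 of 41, where 51% of the 12996 genes tested were lower, with a median change of -0.08 against -0.01 over all genes. No member was called, where 0.0231% of all genes were, and by limma 0 were lower and 0 higher at an unadjusted p under 0.05, beside 1.47% and 2.62% of all genes. By limma-voom on rebuilt reads 0 were called and 0 were lower at that p, beside 1.5%. With the line as a block 37 were lower, beside 52.3% of all genes, the median was -0.17 and 1 member (Utp20) was lower and 0 higher at an unadjusted p under 0.05, beside 3.03% and 4.38% of all genes. With the length trend removed 34 were lower, beside 51.3%, the median was -0.09 and 1 member (Gar1) was lower and 0 higher at that p, beside 1.42% and 2.65%. Without the mock library 38 were lower, beside 51.5% of all genes, with a median of -0.13 against -0.01. The pair of line 700 had a median of -0.23 with 37 members lower, where 50.9% of all genes were. The pair of line 889 had a median of -0.08 with 28 lower, where 50.6% were. The medians of these pairs with the length trend removed were -0.24 and -0.08 with 37 and 30 lower. In both pairs 26 members were lower, beside 29.5% of all genes, and 2 (Bysl and Bop1) were higher, beside 27.2%.

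For 4 members (Gar1, Polr1a, Ncl and Mybbp1a) both BME dox libraries lay below all 4 controls, beside 5.83% of all genes. Mybbp1a measured 76.7, 71.6 and 70.0 FPKM in untreated lines 682, 700 and 889, 70.9 FPKM in the mock library and 51.5 and 65.0 FPKM with dox in lines 700 and 889. The step was mostly in line 700, and the change of -0.32 ± 0.14 (adjusted p = 0.959) was -0.15 without that dox library. Ncl measured 78.3, 72.2 and 77.3 FPKM untreated, 66.9 FPKM in the mock library and 59.2 and 61.3 FPKM with dox, a change of -0.28 ± 0.13 (adjusted p = 0.959). The mock value lay between the untreated and the dox values. Gar1 measured 32.8, 26.7 and 26.6 FPKM untreated, 27.2 FPKM mock and 22.3 and 23.9 FPKM with dox, a change of -0.28 ± 0.14 (adjusted p = 0.959). Untreated line 682 stood above the other 3 controls in Gar1.

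The lowest BME changes outside this group were those of Utp20 and Npm1. Utp20 measured 4.87, 5.01 and 6.95 FPKM in untreated lines 682, 700 and 889, 5.70 FPKM mock and 3.03 and 5.04 FPKM with dox. Line 889 with dox overlapped the untreated lines, and the change of -0.42 ± 0.23 (adjusted p = 0.959) was -0.12 without dox line 700 and -0.71 without dox line 889. Npm1 measured 1051, 903 and 807 FPKM untreated, 663 FPKM mock and 669 and 637 FPKM with dox, a change of -0.37 ± 0.21 (adjusted p = 0.959). Here the mock library was as low as the dox libraries.

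At the upper end stood Bysl, the sole member with both BME dox libraries above all controls, beside 6.33% of all genes. It measured 9.22, 10.9 and 11.2 FPKM untreated, 9.55 FPKM mock and 11.6 and 12.4 FPKM with dox, a change of 0.21 ± 0.15 (adjusted p = 0.959). Its annotated exons overlap those of Ccnd3 on the opposite strand by 353 bases, and whether the counting used strand is not stated. Bop1 measured 28.5, 26.1 and 41.9 FPKM untreated, 29.2 FPKM mock and 28.7 and 44.1 FPKM with dox. Line 889 was high with and without dox, and the change of 0.20 ± 0.25 (adjusted p = 0.963) turned to -0.10 without the dox library of line 889.

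The dox and control groups overlapped in BME for each of Fbl, Nhp2, Dkc1, Polr1c, Emg1, Utp15 and Rrs1. Fbl measured 186, 135 and 150 FPKM in untreated lines 682, 700 and 889, 131 FPKM mock and 102 and 149 FPKM with dox. Nhp2 measured 110, 98.7 and 102 FPKM untreated, 85.6 FPKM mock and 86.1 and 115 FPKM with dox. Both snoRNP genes thus had a step in line 700 that line 889 did not show. Dkc1 measured 28.3, 24.0 and 36.8 FPKM untreated, 21.9 FPKM mock and 18.3 and 31.7 FPKM with dox, and Polr1c 50.7, 44.3 and 42.4 FPKM, 42.3 FPKM and 47.3 and 41.3 FPKM. Dkc1 was lower in each same-line pair although lines differed more than arms, and Polr1c was not. Emg1 measured 76.0, 81.4 and 74.9 FPKM untreated, 54.3 FPKM mock and 65.1 and 76.9 FPKM with dox. The mock library was the lowest of the 6 for Emg1. Utp15 measured 12.1, 13.4 and 11.7 FPKM, 11.7 FPKM mock and 12.3 and 10.8 FPKM with dox, and Rrs1 26.4, 25.6 and 21.1 FPKM, 23.1 FPKM and 22.2 and 20.3 FPKM. In both genes the dox and mock pairs all lay between -0.20 and -0.04.

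The mock pair was set beside the dox pairs because Smad4 RNA was nearly level in it. Of the 41 members 34 were lower in the mock library than in untreated line 682, where 51.1% of all genes were, and the median change was -0.21 against -0.01 over all genes. With the length trend removed 35 were lower, beside 50.5% of all genes, and the median was -0.14. When every library was rescaled to a fixed sum (TPM), the median of all genes in this pair shifted to 0.15 and that of the members to -0.03 with 22 lower, beside 29.4% of all genes, so the distance between members and all genes stayed near the main value. The lowest members were Npm1 at -0.66, Fbl at -0.50 and Emg1 at -0.48. The highest was Utp20 at 0.19, followed by Gnl2, a GTPase of large subunit maturation, at 0.15. This pair has 1 library on each side, so its values have no replicate check and no test.

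Across both environments 15 members were lower in all 5 same-line dox pairs, beside 8.06% of the 11977 genes kept in both tables, and none was higher in all 5, beside 8.7%. These were Nop58, Fbl, Dkc1 and Gar1 of the snoRNPs, Polr1a, the small subunit factors Nop14 and Pwp2, the large subunit factors Wdr12, Pes1, Wdr74 and Gnl2, and Ncl, Npm1, Nolc1 and Mybbp1a. Of the 15, 13 were also lower in the mock pair, all except Gnl2 and Nolc1, beside 6.12% of all genes for all 6 pairs.

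Whether the change with dox depended on the environment was examined with an interaction term. It was more negative on plastic for 35 of 41 members, where 48.6% of the 11977 genes were, with a median difference of -0.25 against 0.01 over all genes. No member was called by limma or by limma-voom, where 0% of all genes were by limma, and with limma 0 passed an unadjusted p under 0.05 in either direction, beside 1.23% and 1.3%. After removal of the length trend the difference was negative for 34 members, beside 46.7% of all genes, with a median of -0.25, and 0 passed an unadjusted p under 0.05 in either direction, beside 1.11% and 1.69%. The widest differences in the first fit were those of Wdr74 (-0.53 ± 0.33), Grwd1 (-0.52 ± 0.27) and Wdr12 (-0.51 ± 0.26), each at an adjusted p of 1.00. In BME, Wdr74 measured 55.0, 69.1 and 52.4 FPKM in untreated lines 682, 700 and 889, 44.1 FPKM mock and 59.2 and 51.7 FPKM with dox. Grwd1 measured 21.0, 19.4 and 19.5 FPKM, 15.7 FPKM mock and 16.4 and 22.6 FPKM with dox, and Wdr12 8.32, 7.23 and 9.28 FPKM, 6.13 FPKM and 6.82 and 8.94 FPKM. For all 3 genes the mock library was the lowest BME library and is counted among the controls. With the line as a block 33 members were lower, beside 48.3% of all genes, with a median of -0.18. With only lines 700 and 889, which were grown both ways, the median difference over members was -0.11 with 31 lower, beside 49% of all genes, and the differences were -0.07, -0.30 and -0.37 for Wdr74, Grwd1 and Wdr12.

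Of 106 further ribosome biogenesis genes 91 had lower fitted values on plastic with a median of -0.17, and 65 in BME with a median of -0.03, beside 48.9% and 51% of all genes. None was called by limma in either environment. At an unadjusted p under 0.05, 4 were lower and 0 higher on plastic and 0 were lower and 0 higher in BME, where 3.73% and 1.47% of all genes were lower. On plastic 7 of the 106 were lower at that p with the line as a block, beside 6.05% of all genes, and 10 of the 96 with a known length were lower with the length trend removed, beside 4.55%. By role the medians on plastic were -0.15 for 12 polymerase I, -0.32 for 9 snoRNP, -0.17 for 41 small subunit and -0.17 for 44 large subunit genes. Znhit6, an assembly factor of box C/D snoRNPs, had the lowest plastic value. It measured 6.11, 6.01 and 6.88 FPKM untreated and 3.47, 3.44 and 3.54 FPKM with dox in lines 560, 700 and 889, with a narrow spread in each group (-0.71 ± 0.18, adjusted p = 0.396). In BME it measured 5.44, 5.43 and 5.38 FPKM untreated, 5.2 FPKM mock and 5.11 and 5.77 FPKM with dox, a change of 0.02 ± 0.14 (adjusted p = 0.993). Ruvbl2, another assembly factor, and Nle1, a large subunit factor, followed with -0.69 ± 0.31 (adjusted p = 0.627) and -0.59 ± 0.29 (adjusted p = 0.649) on plastic. Ruvbl2 measured 109, 55.6 and 50.6 FPKM untreated and 43.0, 40.1 and 41.5 FPKM with dox in lines 560, 700 and 889, and Nle1 12.8, 6.28 and 7.62 FPKM and 6.39, 4.56 and 5.17 FPKM. Untreated line 560 was the highest library for both. The highest values were those of Riok2, a small subunit kinase, at 0.33 ± 0.22 (adjusted p = 0.757) and Utp4, a processome component, at 0.19 ± 0.26 (adjusted p = 0.899). Riok2 measured 6.78, 8.97 and 8.47 FPKM untreated and 8.6, 10.3 and 12.5 FPKM with dox, and Utp4 52.6, 41.1 and 63.0 FPKM and 48.8, 53.4 and 77.7 FPKM. Riok2 was higher in each pair, and Utp4 in lines 700 and 889. In BME, Ruvbl2 measured 57.4, 52.2 and 70.2 FPKM in untreated lines 682, 700 and 889, 49.4 FPKM mock and 45.2 and 71.3 FPKM with dox, and Nle1 16.6, 12.2 and 14.9 FPKM, 13.2 FPKM and 9.53 and 13.9 FPKM. Their BME changes were 0.00 ± 0.23 (adjusted p = 0.999) and -0.27 ± 0.20 (adjusted p = 0.959), and in both genes the groups overlapped. Riok2 measured 15.9, 16.6 and 11.6 FPKM untreated, 14.3 FPKM mock and 17.2 and 11.98 FPKM with dox in BME, and Utp4 45.0, 51.4 and 50.9 FPKM, 42.04 FPKM and 45.7 and 50.5 FPKM. Their BME changes were -0.01 ± 0.21 (adjusted p = 0.997) and 0.03 ± 0.14 (adjusted p = 0.993), again with overlap.

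Ribosomal proteins are the components that this pathway assembles. By limma 81 of the 82 cytosolic ribosomal protein genes had lower fitted values on plastic (median -0.26), beside 48.9% of all genes. In BME 62 did (-0.05), beside 51%. The difference between environments was negative for 77 (-0.19), beside 48.6%, and none was called. With the length trend removed these counts were 75, 69 and 46 of 80 (-0.17, -0.11 and -0.02), beside 48.5%, 51.3% and 46.7%. By pair the medians of the 82 genes were -0.87, 0.00 and 0.07 in plastic lines 560, 700 and 889. In BME lines 700 and 889 they were 0.05 and -0.12. In the mock pair their median was -0.47. All 82 were lower both there and in plastic line 560, beside 51.1% and 49.8% of all genes. Their transcripts are short, with a median of 855 bases. With the length trend removed from each pair the medians were -0.28, -0.05 and -0.13 on plastic and -0.29 in the mock pair. In BME lines 700 and 889 they were -0.01 and -0.16. The 30 S and G2/M phase genes had medians of -0.62, -1.17 and -1.29 in plastic lines 560, 700 and 889. In BME their medians were -1.03 in line 700 and -0.04 in line 889, and -0.09 in the mock pair. Beside these, the members had medians of -0.43, -0.26 and -0.26 in plastic lines 560, 700 and 889. In BME the members stood at -0.23 in line 700 and -0.08 in line 889, and at -0.21 in the mock pair. The part of cell cycle genes in the members' values was not tested.

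**Figure D4:**
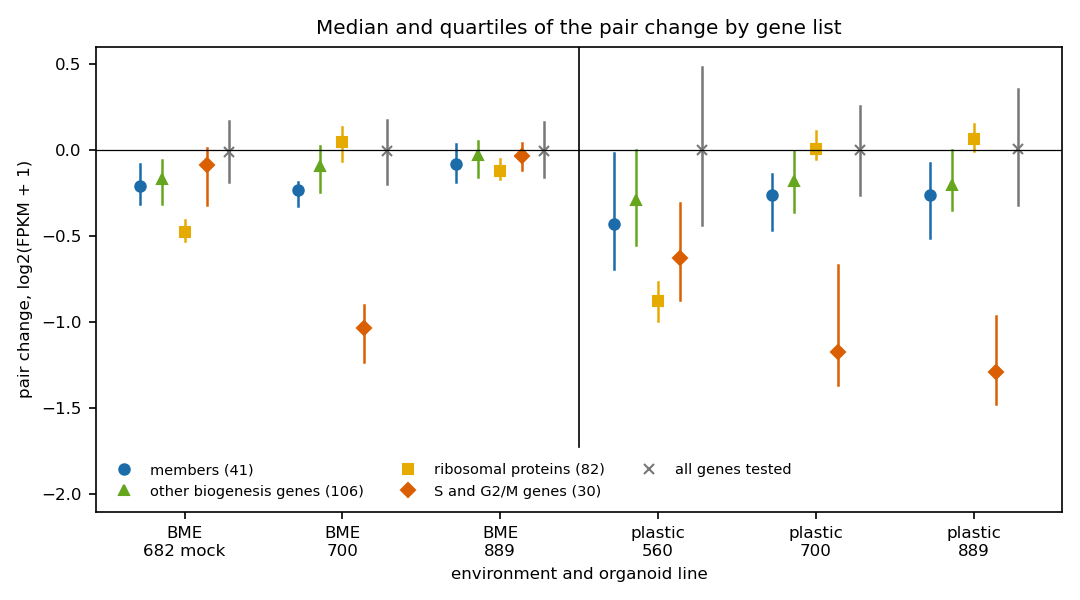
Symbols give the median and vertical lines the quartiles of the change of log2(FPKM + 1) (y axis) in each same-line pair (x axis) for 5 gene lists. The members lie below all genes in every pair, from -0.08 in BME line 889 to -0.43 in plastic line 560, while ribosomal proteins are lowest in the mock pair, BME line 889 and plastic line 560 and S and G2/M genes in the other plastic pairs and BME line 700.

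The members whose promoter window holds the E-box CACGTG include Utp20, Mybbp1a and Grwd1, shown above. These had the lowest plastic changes of the 8, at -0.66, -0.55 and -0.48. The others ran from -0.29 in Pes1 to -0.05 in Tsr1. The median change on plastic was -0.26 over the 8 members with it and -0.34 over the 27 with a window without it. With the length trend removed the medians were -0.26 and -0.36.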

How the data were processed

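RNA was extracted with RNeasy kits, sequenced at BGI and processed by the authors with kallisto and DESeq2 (mm9 in the submitters' processing notes; versions not given in the sources used here). The authors deposited FPKM per gene for 6 BME and 6 plastic libraries, each table normalized on its own. They also deposited a mean signal per gene (counts divided by size factors), used here only to rebuild reads; the fold change, SE and p columns beside it were not used. After rebuilding, 90.7 to 92.7% of low values were whole within 0.1 reads. Here log2(FPKM + 1) of genes with a mean of at least 0.5 FPKM was fitted with limma 3.58.1 in R 4.3.3 (two-sided, trended variance, Benjamini-Hochberg over all genes), and the fits were tested on simulated data. The members and lists were chosen with earlier results of these data known. Values in every library are given for the 5 lowest and 2 highest members per environment, the 3 with the widest difference between environments, and the member of highest mean FPKM on plastic in each role. For other ribosome biogenesis genes they are given for the 3 lowest and 2 highest on plastic, and also for Smad4 and the MYC network. A line number names the same organoid line, so it pairs libraries: deviations of dox and untreated libraries of a line correlated at 0.61 and 0.66 in BME and 0.25 to 0.61 on plastic. Transcript lengths (the longest coding transcript of a gene) and positions came from GENCODE annotation of NCBIM37. Lengths were known for 82.6 and 84.2% of genes tested in BME and on plastic. The length trend (lowess) and the fit of lines 700 and 889 alone on plastic were chosen after seeing the data. Other alternatives were pseudocount, filter, scaling, limma-voom on rebuilt reads, placing of the mock library, the line as a block, and leaving out each library. Nothing in the labels says that libraries of a group came from separate cultures beyond the line, so p-values measure the spread between these libraries.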

Additional observations from a re-analysis of the deposited data

Results flagged for a closer look

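Gar1, a core protein of box H/ACA snoRNPs, had 1 library set apart among the 4 BME controls. Untreated line 682 measured 32.8 FPKM and the other 3 controls 26.6 to 27.2 FPKM, so that the gap to the nearest value was 0.909 of the whole range, and this is more than Dixon's 95% critical value for 4 samples. Across the 41 members tested this way 1 was set apart, where chance, at about 1 in 20 groups, gives 2.05.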

How the results depend on the processing

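No member was called under any alternative. Among the counts and medians over members, 187 planned and 15 added alternative values stayed within the margin and 19 and 3 moved; among the named genes, 257 and 23 kept their direction and 4 and 1 reversed. The members lower at an unadjusted p under 0.05 in BME numbered 0 and became 2 without a filter, 2 with TPM scaling, and 1 with the mock library left out, with it counted as dox, with the line as a replicate block, and with the length trend removed. On plastic they numbered 6 and became 10 without a filter, 12 with the length trend removed, 10 in lines 700 and 889 alone, and 3 with the replicate block. Each plastic line has both a dox and an untreated library, so the block cannot move a fitted change. The 39 members lower under it are therefore fixed by the design. For the environment difference the block gave 33 members lower with a median of -0.18. Leaving out 1 library at a time gave 0 to 3 in BME (3 without dox line 889, 1 without the mock library), 1 to 8 on plastic (1 without dox line 700, 2 without untreated line 700 or dox line 889, 3 without untreated line 889) and 0 to 6 for the environment difference (6 without BME dox line 700, 1 without BME untreated line 700 or 889 or plastic dox line 889). The median change ranged from -0.15 to -0.04 in BME, from -0.36 to -0.29 on plastic and from -0.32 to -0.12 for the environment difference; it was -0.04 without BME untreated line 700, and the BME dox line 889 library moved it to -0.15 in BME and -0.12 in the difference. The mock pair median was -0.032 with 22 members lower under TPM scaling, where the median of all genes was 0.15. Bop1 in BME was -0.10 without dox line 889, in a range of -0.10 to 0.50. On plastic Rrs1 was -0.17 in lines 700 and 889 alone, -0.15 without untreated line 560 and -0.02 without dox line 889 (range -0.15 to 0.17), and Utp15 was -0.055 without untreated line 560 (range -0.05 to 0.17). With a mean of at least 5 FPKM Utp20 gave no value on plastic or for the difference, so 40 members were counted. Apart from the length trend, the cause of these shifts was not tested.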

Other observations

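Genes of the MYC network, whose products act on ribosome biogenesis genes, gave the following values. Myc measured 125, 166 and 154 FPKM in untreated plastic lines 560, 700 and 889 and 124, 136 and 104 FPKM with dox (-0.29 ± 0.21, adjusted p = 0.785). In BME it measured 229, 336 and 150 FPKM in untreated lines 682, 700 and 889, 189 FPKM in the mock library and 228 and 144 FPKM with dox (-0.25 ± 0.35, adjusted p = 0.965). Myc was lower in each pair, by least in plastic line 560. Mxd1, a MAX partner that competes with MYC, measured 7.05, 6.81 and 5.07 FPKM untreated and 14.3, 23.1 and 12.5 FPKM with dox on plastic (1.24 ± 0.28, adjusted p = 0.322), without overlap of the groups. In BME Mxd1 measured 4.18, 13.8 and 13.9 FPKM untreated, 4.72 FPKM mock and 14.8 and 11.1 FPKM with dox (0.62 ± 0.52, adjusted p = 0.959), where line 682 was low in both its libraries. With the line as a block no gene of this network, Mxd1 included, had a BME change above 0.04. Max, the partner of MYC and Mxd1, measured 57.2, 52.4 and 68.1 FPKM untreated and 55.9, 63.9 and 81.3 FPKM with dox on plastic. In BME Max measured 56.5, 53.5 and 60.7 FPKM, 53.3 FPKM mock and 50.8 and 58.0 FPKM. Mnt, another MAX partner, measured 10.7, 14.8 and 14.8 FPKM untreated and 15.9, 15.5 and 17.8 FPKM with dox on plastic, higher in each pair. In BME Mnt measured 14.6, 19.7 and 13.0 FPKM, 15.0 FPKM mock and 18.3 and 13.0 FPKM with dox. Mycl measured 5.50, 2.65 and 0.752 FPKM untreated and 6.92, 2.52 and 1.83 FPKM with dox on plastic, and 19.3, 12.4 and 12.2 FPKM untreated, 9.84 FPKM mock and 5.76 and 13.9 FPKM with dox in BME. Mycn passed the filter in BME alone, at 3.19, 3.31 and 0.0242 FPKM untreated, 4.05 FPKM mock and 2.69 and 0.273 FPKM with dox. No gene of this list was called by limma, and on plastic Mxd1 alone had an unadjusted p under 0.05.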
